A study of Mus musculus with 6 samples.

Results

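The genes described here write or erase methyl groups on histone lysines and on protein arginines. They were taken from the table by symbol, as every row whose name starts with Kdm, Kmt, Setd or Prmt followed by a digit, plus Setdb1 and Setdb2, leaving out 1 KMT2 gene and processed copies. The rule took 43 of 47643 rows. Of these, 41 are genes of enzymes or of close relatives of enzymes, and 2 are not: Kdm6bos, an antisense RNA of Kdm6b, and Kdm4dl, a pseudogene. The table names Kmt5a by its older symbol Setd8 and Prmt9 by its older symbol Prmt10, and those spellings are kept.

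RNA-seq was done on leukaemic GMP cells (L-GMP). GMP, granulocyte-macrophage progenitors, normally give rise to granulocytes and monocytes, and the leukaemic cells bear that name because they resemble this stage. All came from C57BL/6 mice, and the cells were sorted. The 2 groups were wild type (WT, 3 libraries) and a double knockout of Prkaa1 and Prkaa2 (KO, 3 libraries), which encode the alternative catalytic alpha subunits of the energy sensor AMPK. The labels name neither the leukaemia's oncogene nor the Cre line, the age of the mice, or whether each library came from its own mouse. Each p-value therefore reflects how far the 3 libraries of a group differ, and that difference may be technical only.

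Methyl groups on histone tails are added by SET-domain and other methyltransferases with S-adenosylmethionine as the donor, and are removed by flavin-dependent oxidases (KDM1) or by JmjC dioxygenases that need iron, oxygen and 2-oxoglutarate. The residue decides the role: H3K4 methylation marks promoters and enhancers, H3K36 methylation the bodies of transcribed genes, and H3K9, H3K27 and H4K20 methylation mostly silent or compacted chromatin. Protein arginine methyltransferases (PRMT) make asymmetric dimethylarginine (type I), symmetric dimethylarginine (type II) or monomethylarginine (type III) on histones and on many RNA-binding and splicing proteins.

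Values are FPKM, read number scaled to gene length and sequencing depth, as mean ± SD of 3 libraries unless given by library, and a fold is a ratio of such means. A log2 change is KO minus WT on the log2(FPKM + 1) scale, which understates the change of weakly expressed genes. Rose and fell are used where limma's adjusted p was under 0.05. Whole reads could be recovered from the steps of the FPKM values and came to 13853360 to 19968914 per library. Prkaa1, the targeted gene that is expressed here, was read at 2.01, 2.20 and 1.80 FPKM in WT and 1.11, 0.735 and 0.548 in KO, and Prkaa2 had 2 reads in WT and 4 in KO. Of the markers of the labelled cell type, 5 of 7 tested were higher in KO (with libraries rescaled as described below, Ctsg was lower and Cebpa not called) and 2 were lower (Cd34, 27.9 and 3.51 FPKM, and Fcgr3, 129 and 66.8), and Kit was at 0.250 FPKM in WT and 1.43 in KO. Markers of other cells moved with the genotype. The summed level of 10 neutrophil genes was 317 to 332 FPKM in WT and 71422 to 72816 in KO, with Ly6g at 0 in WT and Mmp9 at 0 in KO. Most of the KO sum came from S100a8 (mean 52072 FPKM), S100a9 (14560) and Ngp (4568). Camp was at 6.74 in WT and 10.3 in KO, and Cxcr2 (0.643) and Ly6g (0.837) were low in KO. That of 8 basophil, mast cell and eosinophil genes was 32.8 to 39.0 and 573 to 603, with Epx, Prss34 and Fcer1a at 0 in WT. That of 8 erythroid genes was 6.27 to 8.12 and 60.3 to 66.5, with Gata1, Car1 and Epor at 0 in WT. All tested members of these 3 lists were higher in KO (7, 8 and 5 genes; Camp was not called with rescaled libraries), and the summed levels of 4 T cell and 4 B cell markers were at most 0.0685 and 0.371 FPKM, with Cd3e, Cd3g, Cd8a and Pax5 at 0 in every library. The part of these shifts in the results below was not tested, and fewer cells of a type cannot be told apart from less RNA per cell.

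Of the 43 genes, 18 had a mean of at least 1 FPKM and were tested, 2 had no read in any library (Prmt8 and Kdm4dl), and the others were expressed below that level. Of the 18, 6 rose in KO and 9 fell, while 38.0% and 40.4% of all 9108 tested genes did so (78.4% in either direction). With a change of at least 1.5-fold also required, 3 rose and 6 fell, against 23.1% and 24.8% of all genes. The median log2 change of the 18 was -0.25, and that of all tested genes -0.02. In 10 of the 43 genes every KO value lay above every WT value and in 16 below, against 24.8% and 30.8% of the 21132 genes with a read. These shares lie near the background, so the totals are no result about the family, and the genes are described by substrate below. Of the 18, 3 had a mean below 1 FPKM in 1 genotype (Setd2 in WT, Setdb1 and Setd4 in KO) and so passed the minimum through the other. The members just above the minimum were Kdm3b (mean of 6 libraries 1.08 FPKM) and Setdb1 (1.19), and those just below it Kdm2b (0.965) and Kdm5c (0.961).

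The direction of some genes depended on whether libraries were rescaled to equal sums of FPKM. With libraries rescaled to equal sums of FPKM, the median of all tested genes moved to -0.41, and the share of called genes that were higher fell from 48.5% to 27.8%. Among the 18 genes, 2 (Kdm4b and Kmt2e) were then higher and 12 lower. Setd8, Setd6 and Kmt2d changed sign, and the rises of Setd2 and Prmt2 were lost. Kdm3b, Prmt10 and Kmt2d were newly called lower. Other scalings left the calls of all 18 genes as they were. With quantile normalization 6 were higher and 9 lower, and likewise with limma-voom on recovered reads. The sums made equal by rescaling were 463683 to 475654 FPKM in WT and 649611 to 653819 in KO. S100a8 alone averaged 205 FPKM in WT and 52072 in KO.

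Arginine methyltransferases had the largest summed level of these groups in WT and in KO, and 5 of them fell. Of 8 members, 7 were tested: 5 fell (Prmt1, Prmt3, Prmt5, Prmt6, Prmt7), 1 rose (Prmt2) and 1 was not called (Prmt10), and all 5 falls were at least 1.5-fold. Their median log2 change was -1.10, and -1.51 with rescaled libraries. Of all tested genes, 38.0% rose, 40.4% fell and 24.8% fell by at least 1.5-fold. The median log2 change of all tested genes was -0.02, and -0.41 with rescaled libraries. The family's summed FPKM differed 2.23-fold, with 144 ± 1.90 in the WT and 64.8 ± 2.03 in the KO libraries. The family made up 69.6% of the summed FPKM of all 43 genes in WT and 45.4% in KO. With so many genes called in this comparison, these counts are a description of the family.

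The stretches just upstream of 3 of the 5 genes that fell and of the 1 that rose are shown (RefSeq starts, GRCm38.p6, 5′ to 3′ on the gene's strand). Prmt6 and Prmt7, which also fell, hold neither of the sequences marked here and are not shown. Capitals mark CACGTG, the E-box that MYC and MAX bind, and CCAAT, the NF-Y box, on either strand (so ATTGG is CCAAT read on the other strand). The windows lie at chr7:44986569-44986670 (minus strand) for Prmt1, chr7:49778108-49778357 (plus) for Prmt3, chr14:54517526-54517720 (minus) for Prmt5 and chr10:76237866-76238115 (minus) for Prmt2.
Prmt1: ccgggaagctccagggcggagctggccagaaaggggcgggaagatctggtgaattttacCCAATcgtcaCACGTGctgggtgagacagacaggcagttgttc
Prmt3: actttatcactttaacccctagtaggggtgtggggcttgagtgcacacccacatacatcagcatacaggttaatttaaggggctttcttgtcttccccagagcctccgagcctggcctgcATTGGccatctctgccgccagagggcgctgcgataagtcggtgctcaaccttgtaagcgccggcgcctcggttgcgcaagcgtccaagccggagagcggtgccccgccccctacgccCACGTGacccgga
Prmt5: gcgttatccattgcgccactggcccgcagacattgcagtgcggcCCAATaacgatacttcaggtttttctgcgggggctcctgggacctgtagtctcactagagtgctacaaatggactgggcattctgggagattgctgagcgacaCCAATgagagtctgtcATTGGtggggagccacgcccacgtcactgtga
Prmt2: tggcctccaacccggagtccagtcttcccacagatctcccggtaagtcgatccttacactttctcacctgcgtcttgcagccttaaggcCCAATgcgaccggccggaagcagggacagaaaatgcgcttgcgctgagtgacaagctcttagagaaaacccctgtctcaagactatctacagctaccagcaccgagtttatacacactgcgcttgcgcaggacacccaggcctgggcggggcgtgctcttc

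Within the full 250 bases before the start, CACGTG was found in Prmt1 (181 bases before the start) and Prmt3 (13 bases before it), once each, and not in Prmt2, Prmt5, Prmt6 or Prmt7. CCAAT was found 4 times in Prmt5, 3 times in Prmt1, once each in Prmt3 and Prmt2, and not in Prmt6 or Prmt7. Of all 32851 RefSeq windows of this length, 6.02% held CACGTG, 33.8% held CCAAT and 0.840% held at least 4 CCAAT. Both motifs were chosen with the expression values known, and a match is a description of the sequence only. The stretches of Prmt1 and Prmt5 are shortened to leave out bases inside the GENCODE gene, which removes the 2 CCAAT nearest the Prmt1 start and the 1 nearest the Prmt5 start. The Prmt3 stretch ends at the RefSeq start and holds 12 bases inside the GENCODE gene, among them all but 1 base of its CACGTG.

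Prmt5, the main type II enzyme, was the most abundant of all 43 genes in WT, while in KO every value of Setd6 (31.4 to 37.4 FPKM) lay above it. It was read at 74.8, 75.0 and 74.0 FPKM in WT and 29.2, 28.9 and 29.5 in KO, from 13267 and 4291 reads. The groups lay far apart, with the lowest WT value 2.51 times the highest KO value (log2 change -1.32, SE 0.03, limma adjusted p = 2.22e-08). Prmt5 lies on the minus strand of mm10 chromosome 14, 54507187 to 54517525.

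Genes of its partner proteins fell too. Wdr77, whose product forms the active complex with PRMT5, fell 3.11-fold from 16.04 ± 0.688 to 5.16 ± 0.207 FPKM, and Riok1, an adaptor that brings substrates to PRMT5, 2.48-fold from 10.3 ± 1.84 to 4.17 ± 0.819. The adaptor genes Clns1a (90.5 ± 1.03 and 54.6 ± 2.43 FPKM) and Coprs (98.4 ± 4.74 and 65.5 ± 1.598 FPKM), named after their values were seen, fell as well. Wdr77 is uncertain, since 31.5% of its exonic length overlaps Atp5f1 and Gm42890.

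Prmt7, the type III enzyme, came after Prmt5 within the family in both genotypes. Its values were 41.1, 41.4 and 40.8 FPKM in WT and 18.6, 20.5 and 17.1 in KO (2.20-fold lower, log2 change -1.10, SE 0.06, limma adjusted p = 2.60e-06). The 3 KO libraries varied more than the 3 WT libraries but stayed well below them. Prmt5 and Prmt7 together gave 80.1% of the family's summed FPKM in WT and 73.9% in KO.

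Prmt1, which makes most of the cell's asymmetric dimethylarginine and methylates H4R3, fell the most of the family. It was read at 12.5, 12.7 and 12.8 FPKM in WT and 3.77, 4.25 and 4.401 in KO (3.06-fold lower, log2 change -1.41, SE 0.06, limma adjusted p = 8.27e-07). Prmt3, a cytosolic type I enzyme that methylates the ribosomal protein RPS2, was read at 7.81, 7.32 and 7.06 FPKM in WT and 2.62, 2.71 and 3.26 in KO (2.58-fold lower, log2 change -1.12, SE 0.08, limma adjusted p = 1.15e-05). Both genes lie on chromosome 7, Prmt1 at 44975989 to 44986568 on the minus strand and Prmt3 at 49778346 to 49858265 on the plus strand. Prmt6, which places asymmetric dimethylation on H3R2, fell from 2.44, 2.34 and 2.38 FPKM to 1.12, 1.30 and 1.05 (2.07-fold, log2 change -0.65, SE 0.08, limma adjusted p = 0.000153). Prmt6 shares 23.4% of its exonic bases with C130013H08Rik on the opposite strand and is uncertain, since it is unknown whether reads were counted by strand.

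Prmt2, a type I enzyme that also acts as a coactivator of nuclear receptors, went the other way. It was read at 4.01, 5.44 and 4.31 FPKM in WT and 7.36, 8.34 and 6.71 in KO (1.63-fold higher, log2 change 0.60, SE 0.12, limma adjusted p = 0.00204). With rescaled libraries its change was 0.20 and was not called (limma adjusted p = 0.136). A ratio within a library does not depend on scaling: Prmt2 over Prmt1 was 0.322, 0.428 and 0.337 in WT and 1.95, 1.96 and 1.53 in KO, so Prmt2 passed from the lower to the higher of the pair (exact permutation p = 0.1, two-sided, the smallest that 3 against 3 libraries can give). This ratio and the others below were chosen after the values were seen. Prmt10, a type II enzyme, was at 1.76 ± 0.475 FPKM in WT and 1.31 ± 0.229 in KO, and its groups overlapped (log2 change -0.25, SE 0.14, limma adjusted p = 0.141). Rescaled, it was called lower at -0.53. The arginine methyltransferase gene Carm1 has a symbol the rule does not take and was named after its values were seen. It was at 1.10 ± 0.0595 and 1.42 ± 0.157 FPKM and was not called (log2 change 0.21, limma adjusted p = 0.0550, and -0.06 rescaled). Carm1 is uncertain, since 21.1% of its exonic bases are shared with Yipf2.

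The order of the family by level thus differed between the genotypes. In WT it ran Prmt5, Prmt7, Prmt1, Prmt3, Prmt2, Prmt6, Prmt10. In KO Prmt2 came next after Prmt5 and Prmt7, followed by Prmt1 and Prmt3, and Prmt10 and Prmt6 came last with overlapping values.

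**Figure D1:**
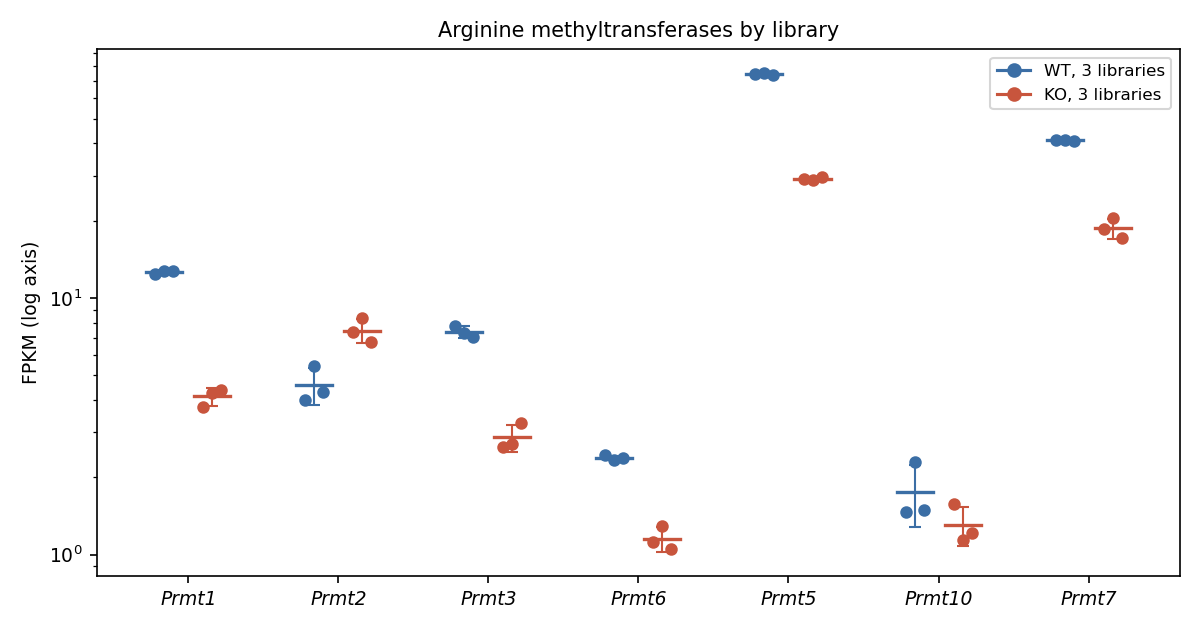
FPKM (log axis) of the 7 expressed arginine methyltransferases in each WT (blue) and KO (red) library, with the mean as a bar and the SD of 3 libraries as whiskers. The WT values of Prmt5 (74.0 to 75.0 FPKM) lie above its KO values (28.9 to 29.5), as in Prmt1, Prmt3, Prmt6 and Prmt7, while Prmt2 is higher in KO as deposited (not called with rescaled libraries) and Prmt10 overlaps.

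The members grouped here as histone lysine methyltransferases and demethylases were far less abundant than the arginine family by summed level, as given below. The 28 with a read had a median WT level of 0.755 FPKM, and the highest, Setd8, stood at 3.88. Lysine methyltransferase genes outside these groups are not counted in this. Some of them stood above Setd8 in WT (Setd6 at 25.7 FPKM, Suv39h1 at 12.1 and Ehmt2 at 6.93) and others below it (Nsd1 at 1.15). All tested genes had a median of 6.61, but these had passed the 1 FPKM minimum, so the 2 medians are not like for like. For the genes below 1 FPKM, a second fit (limma-voom on recovered reads, all genes with at least 30 reads, an analysis added after the data were seen) gave calls where the first could not. There 19 genes of the family below 1 FPKM could be fitted: 4 were higher, 7 lower and 8 not called. Of all 3007 genes below 1 FPKM in that fit, 31.8% were higher and 41.4% lower. In that fit over every level, 10 of 37 members were higher and 16 lower, against 37.7% and 40.4% of all 11966 genes (78.2% in either direction). Log2 changes from that fit are called read-based below and carry no added 1. The other 6 genes had under 30 reads: Kdm4a, Kdm4d, Kdm5d, Prmt8, Kdm4dl and Kdm6bos.

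**Figure D2:**
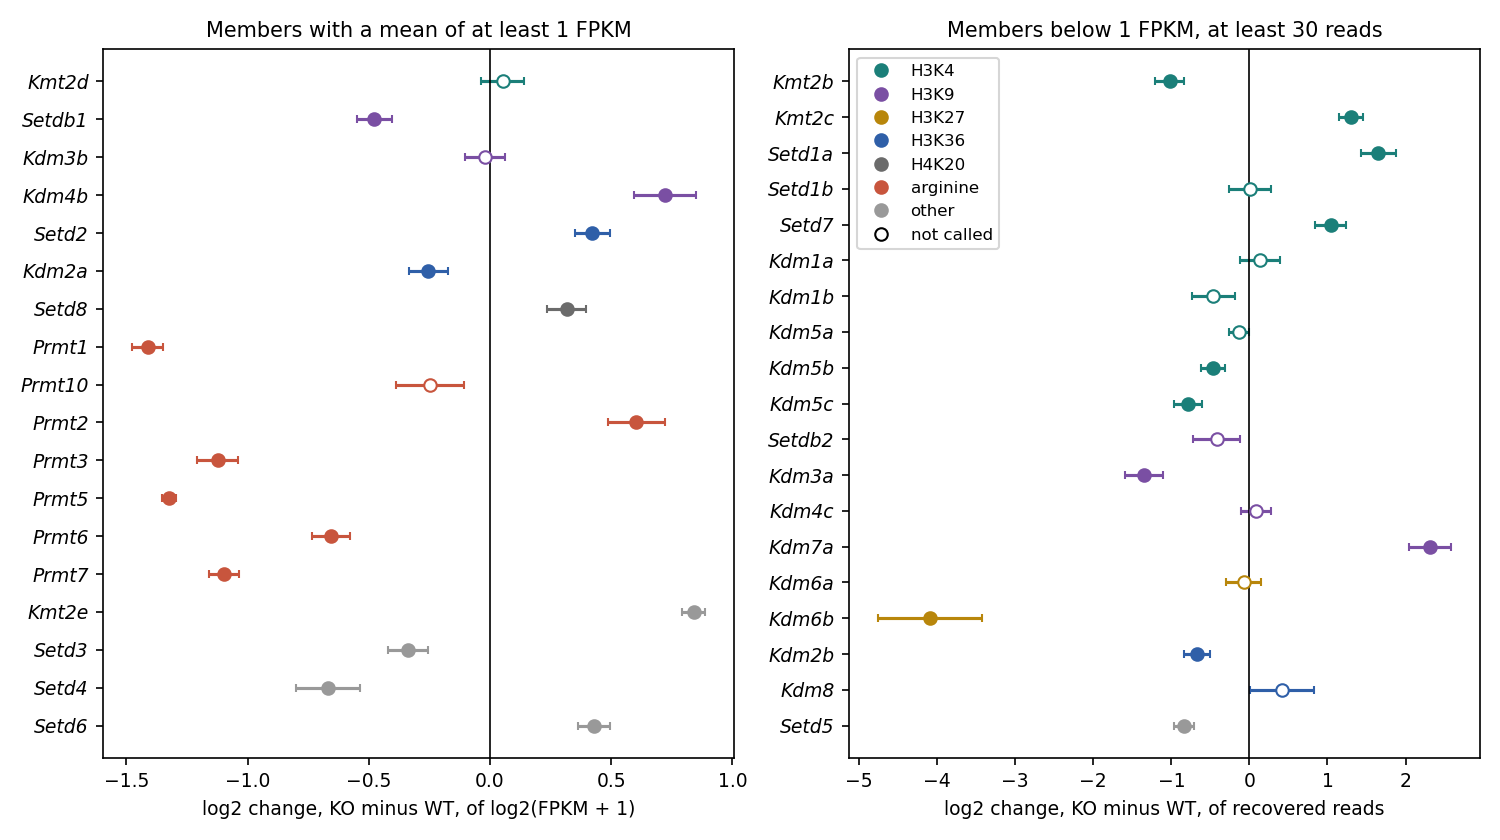
Log2 change from WT to KO with its standard error, on the left for the 18 tested genes (limma-trend on log2(FPKM + 1)) and on the right for 19 genes below it (limma-voom on recovered reads). Colours give the substrate, and open circles were not called. Prmt1 (-1.41) and Prmt5 (-1.32) lie farthest left among the abundant genes, Kmt2e (0.84) farthest right, and Kdm6b (-4.10) and Kdm7a (2.31) mark the ends among the scarce ones. With rescaled libraries Setd8, Setd6 and Kmt2d change sign.

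The H3K4 methyltransferases moved in both directions. Of 6, only Kmt2d passed the minimum, and in the read-based fit of the other 5, 3 were higher (Setd1a, Kmt2c, Setd7), 1 lower (Kmt2b) and 1 not called (Setd1b). In that fit 31.8% of all genes below 1 FPKM were higher and 41.4% lower, so these counts describe the members only. Kmt2d, the main enhancer monomethylase of the family, was at 1.76, 2.17 and 2.16 FPKM in WT and 2.01, 2.12 and 2.28 in KO, with overlapping groups (log2 change 0.05, SE 0.09, limma adjusted p = 0.605), and was called lower with rescaled libraries (-0.27, limma adjusted p = 0.0223). Its relative Kmt2c was at 0.283, 0.419 and 0.468 FPKM in WT and 0.959, 0.929 and 0.937 in KO, 2.41-fold higher (read-based log2 change 1.30, SE 0.16, limma-voom adjusted p = 7.93e-06). Kmt2b, a trimethylase of CpG island promoters, was at 1.07, 0.950 and 0.938 FPKM in WT and 0.375, 0.530 and 0.532 in KO, 2.06-fold lower (read-based log2 change -1.02, SE 0.18, limma-voom adjusted p = 0.000240).

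Kmt2b and Kmt2c thus exchanged rank. Within each library, Kmt2c over Kmt2b was 0.264, 0.441 and 0.499 in WT and 2.56, 1.75 and 1.76 in KO (exact permutation p = 0.1, the smallest possible). Kmt2c lies on chromosome 5, 25271798 to 25498783, minus strand, and Kmt2b on chromosome 7, 30568858 to 30588726, minus strand.

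Setd1a and Setd1b encode the catalytic subunits of the SET1 complexes, which make most H3K4 trimethylation. Setd1a was at 0.243, 0.244 and 0.230 FPKM in WT and 0.748, 0.697 and 0.796 in KO, 3.13-fold higher, from 73 and 189 reads (read-based log2 change 1.65, SE 0.22, limma-voom adjusted p = 2.04e-05). It is uncertain, because 52.3% of its exonic bases are shared with 9430064I24Rik on the opposite strand and with Gm49388. Setd1b was at 0.189 ± 0.0508 and 0.181 ± 0.00803 FPKM with overlapping groups. Setd7, a monomethylase of H3K4 and of several non-histone proteins, was at 0.568, 0.439 and 0.538 FPKM in WT and 0.882, 1.35 and 0.922 in KO, 2.04-fold higher, with KO replicate 2 the highest (limma-voom adjusted p = 0.000405).

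Of the 4 core subunits that the KMT2 and SET1 enzymes share, 3 fell (Ash2l, Rbbp5 and Dpy30) and 1, Wdr5, rose, where 40.4% of all tested genes fell and 38.0% rose. Wdr5 was at 27.6 ± 0.291 and 35.1 ± 2.04 FPKM (log2 change 0.33, limma adjusted p = 0.000438, and -0.12 and not called with rescaled libraries). Rbbp5 was at 5.83 ± 0.811 and 3.54 ± 0.339 FPKM and Dpy30 at 277 ± 4.27 and 215 ± 1.58 FPKM, and these 3 were named after their values were seen. Ash2l, a core subunit of all H3K4 methyltransferase complexes of the KMT2 and SET1 type, fell 3.43-fold from 57.5 ± 0.663 to 16.7 ± 0.638 FPKM (log2 change -1.72, SE 0.04, limma adjusted p = 2.83e-08). Of the SET1 complexes' own subunits, Wdr82 rose 3.16-fold from 1.47 ± 0.387 to 4.63 ± 0.637 FPKM (log2 change 1.20, SE 0.14, limma adjusted p = 0.000125). Cxxc1, another of them and also named after its values were seen, fell 2.02-fold from 19.6 ± 0.844 to 9.71 ± 0.484 FPKM (log2 change -0.94, SE 0.06, limma adjusted p = 3.04e-06).

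Among H3K4 demethylases, 6 members were all below 1 FPKM on average, and of 5 with enough reads 2 were lower in the read-based fit, 0 were higher and 3 were not called. Of all genes below 1 FPKM in that fit, 41.4% were lower and 31.8% higher. Kdm5c, an X-linked H3K4 di- and trimethyl demethylase, was at 1.07, 1.41 and 1.19 FPKM in WT and 0.748, 0.592 and 0.761 in KO, 1.75-fold lower without overlap (read-based log2 change -0.79, SE 0.18, limma-voom adjusted p = 0.00179). Kdm5b was at 0.551 ± 0.0594 and 0.394 ± 0.0358 FPKM (read-based log2 change -0.47, limma-voom adjusted p = 0.0171), a call that was lost without WT replicate 2 (adjusted p = 0.0725) or KO replicate 2 (adjusted p = 0.0553), and in the limma fit of log2(FPKM + 1) with no minimum (-0.15, adjusted p = 0.0857). Kdm5a (0.998 ± 0.101 and 0.897 ± 0.0728 FPKM) overlapped between genotypes. So did the flavin-dependent pair, Kdm1a (LSD1) at 0.849 ± 0.252 and 0.882 ± 0.186 FPKM and Kdm1b at 0.823 ± 0.112 and 0.617 ± 0.226.

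Kdm5d, the Y-linked counterpart of Kdm5c, had no read in 5 libraries and 3 reads in KO replicate 1 (0.0155 FPKM). The other Y-linked genes Ddx3y, Eif2s3y and Uty were at 0 in all 6 libraries, and Xist, the RNA of the inactive X, was at 3.21 to 3.77 FPKM in WT and 3.76 to 4.14 in KO. The other X-linked member, Kdm6a, was at 0.723, 0.508 and 0.469 FPKM in WT and 0.498, 0.452 and 0.587 in KO, so its groups overlapped.

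**Figure D3:**
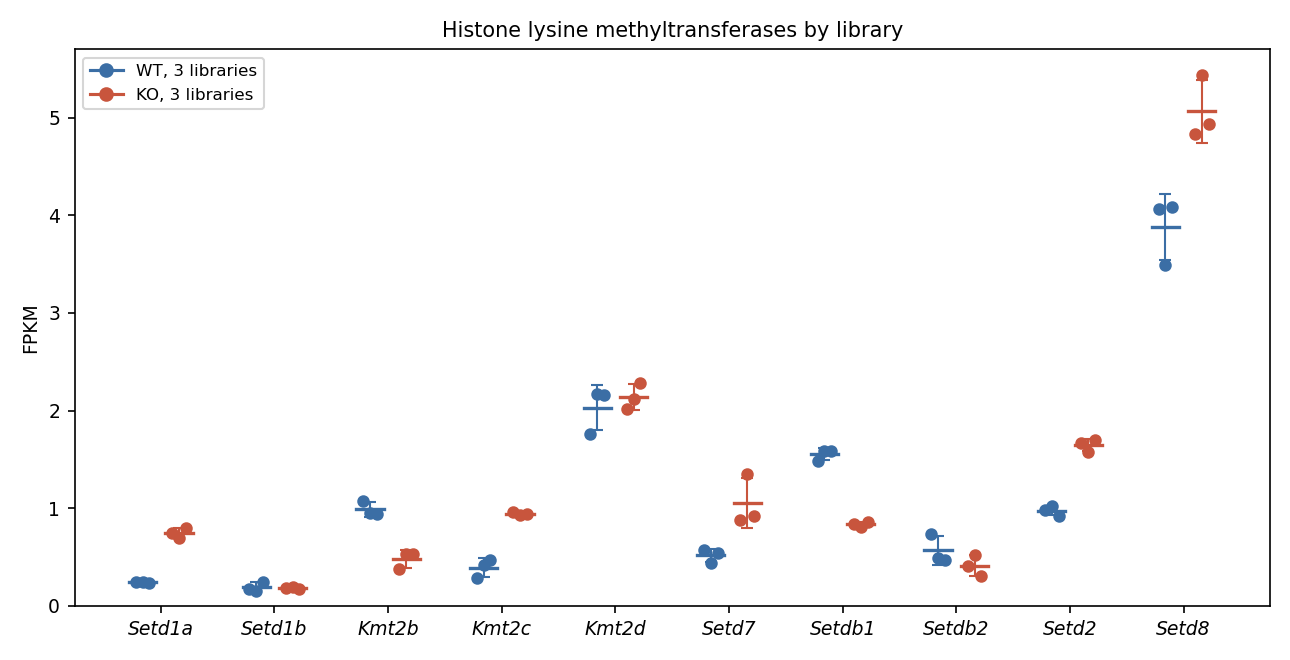
FPKM of the 10 members grouped as histone lysine methyltransferases in each WT (blue) and KO (red) library, with the mean as a bar and the SD of 3 libraries as whiskers. Kmt2b and Setdb1 are lower in KO, Setd1a, Kmt2c, Setd7, Setd2 and Setd8 higher as deposited (Setd8 changes sign with rescaled libraries), and Setd1b, Kmt2d and Setdb2 overlap.

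H3K9 enzymes differed by member. Setdb1, which with KAP1 silences endogenous retroviruses by H3K9 trimethylation, fell from 1.48, 1.59 and 1.58 FPKM to 0.833, 0.806 and 0.857, 1.86-fold, with no overlap (log2 change -0.48, SE 0.07, limma adjusted p = 0.000620). It lies on chromosome 3, 95323525 to 95357202, minus strand. Setdb2 was at 0.568 ± 0.148 and 0.410 ± 0.107 FPKM and overlapped.

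Kdm4b, an eraser of H3K9 and H3K36 trimethylation, rose. Its values were 1.51, 2.09 and 1.40 FPKM in WT and 2.84, 3.67 and 3.65 in KO (2.03-fold, log2 change 0.72, SE 0.13, limma adjusted p = 0.00135, and 0.39 rescaled). It lies on chromosome 17, 56326062 to 56402870, plus strand. Of its relatives, Kdm4c was not called in the read-based fit, and Kdm4a and Kdm4d had too few reads for either fit. Kdm4c was at 0.899 ± 0.149 FPKM in WT and 0.947 ± 0.0785 in KO, Kdm4a had 7 reads in WT and 15 in KO, and Kdm4d had 5 reads in WT and none in KO, where a count of 0 allows up to 3 reads over the group.

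The KDM3 enzymes erase H3K9 mono- and dimethylation. Kdm3a, known as a hypoxia-responsive gene, was at 0.784, 0.632 and 0.647 FPKM in WT and 0.190, 0.309 and 0.291 in KO, 2.61-fold lower (read-based log2 change -1.35, SE 0.24, limma-voom adjusted p = 0.000253). Kdm3b was at 1.10 ± 0.0543 and 1.07 ± 0.116 FPKM with overlapping groups (limma adjusted p = 0.820), was called lower with rescaled libraries (log2 change -0.27, limma adjusted p = 0.0186), and it is uncertain because 24.6% of its exonic length overlaps Gm26538 on the opposite strand. Kdm7a, which erases H3K9 and H3K27 dimethylation, showed the largest relative gain of the 43 genes among those with at least 30 reads. It was at 0.110, 0.110 and 0.0705 FPKM in WT and 0.497, 0.410 and 0.523 in KO, 4.93-fold higher, from 44 and 179 reads (read-based log2 change 2.31, SE 0.27, limma-voom adjusted p = 6.48e-06).

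Kdm6b (JMJD3), the inducible H3K27 demethylase, showed the largest relative loss among those genes. It was at 0.317, 0.302 and 0.459 FPKM in WT and 0, 0.0883 and 0.0111 in KO, from 111 and 8 reads, 10.8-fold lower (read-based log2 change -4.10, SE 0.67, limma-voom adjusted p = 0.000115). Its KO libraries varied widely at 0, 7 and 1 reads, yet the highest stayed under the lowest WT value. Kdm6a (UTX), the other member grouped under H3K27, was not called (read-based log2 change -0.07, SE 0.22, limma-voom adjusted p = 0.778). Kdm7a, which also erases H3K27 dimethylation, was higher in KO, as given above. The antisense Kdm6bos had 2 reads, both in WT replicate 3.

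For H3K36, the methyltransferase member Setd2 rose as deposited (not with rescaled libraries), and Kdm2a, the best expressed of the demethylases grouped here, fell. Kdm4b, grouped with H3K9 above, also erases H3K36 trimethylation. It rose, from 1.67 to 3.39 FPKM, and so stood above Kdm2a in KO. Setd2, the enzyme of H3K36 trimethylation behind elongating polymerase, was at 0.980, 1.02 and 0.923 FPKM in WT and 1.66, 1.57 and 1.70 in KO (1.69-fold higher, log2 change 0.42, SE 0.07, limma adjusted p = 0.00124). Rescaled, its change was 0.16 and not called (limma adjusted p = 0.0839). Kdm2a, a CpG-island-binding demethylase of H3K36 dimethylation, was at 2.06, 1.82 and 1.76 FPKM in WT and 1.49, 1.43 and 1.32 in KO (1.33-fold lower, log2 change -0.26, SE 0.08, limma adjusted p = 0.0211), a call lost without WT replicate 1 (adjusted p = 0.0647) or KO replicate 3 (adjusted p = 0.0583).

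Set against each other within a library, which no scaling affects, Setd2 over Kdm2a was 0.475, 0.558 and 0.524 in WT and 1.11, 1.10 and 1.29 in KO (exact permutation p = 0.1, the smallest possible). Kdm2b, which also brings a Polycomb complex to CpG islands, was at 1.252, 1.23 and 1.08 FPKM in WT and 0.899, 0.759 and 0.576 in KO, 1.59-fold lower (read-based log2 change -0.67, SE 0.17, limma-voom adjusted p = 0.00288). Kdm8 had 63 reads in each genotype and overlapped.

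**Figure D4:**
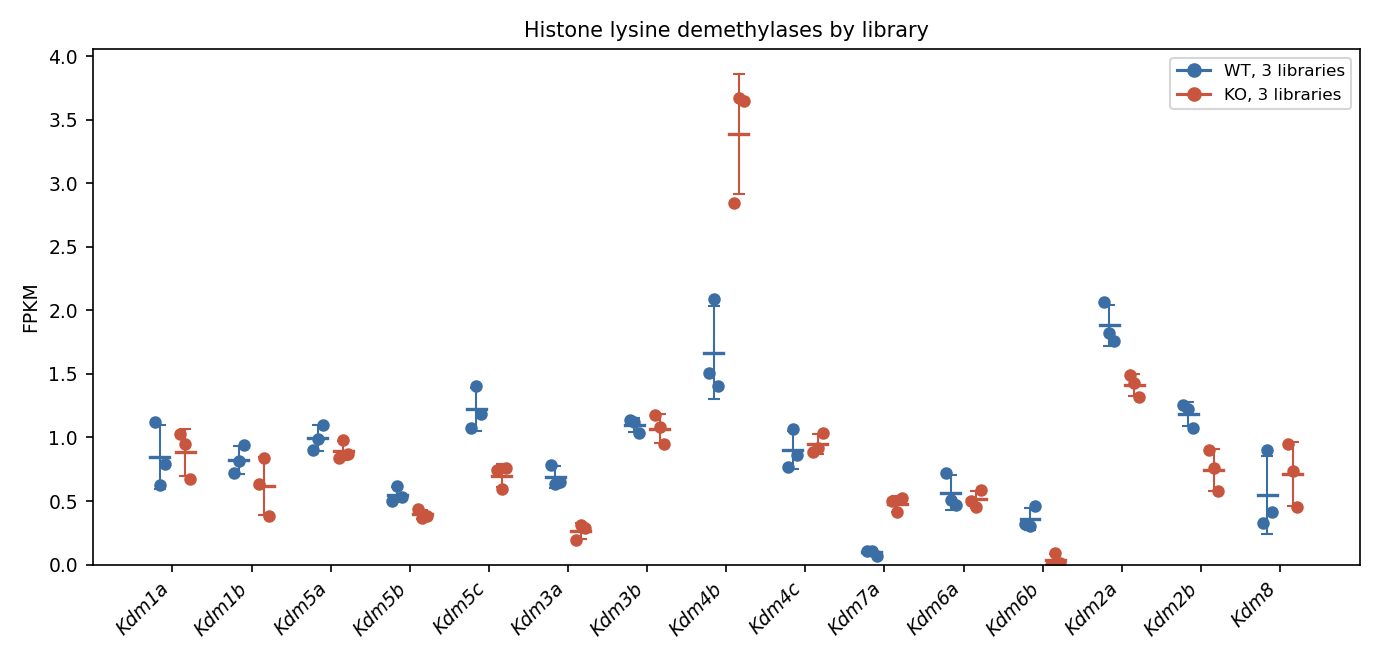
FPKM of 15 histone lysine demethylases in each WT (blue) and KO (red) library, with the mean as a bar and the SD of 3 libraries as whiskers. Kdm4b (1.67 and 3.39 FPKM) and Kdm7a are higher in KO, Kdm5b, Kdm5c, Kdm3a, Kdm6b, Kdm2a and Kdm2b are lower, and the other 7 overlap.

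The 10 members grouped as histone lysine methyltransferases together reached 11.3 ± 0.344 FPKM in the WT and 13.5 ± 0.630 in the KO libraries, and the 18 demethylases 13.5 ± 0.699 and 13.1 ± 0.600. Neither sum approached the 2.23-fold difference of the arginine family. In the read-based fit, 5 of the 10 methyltransferases were higher and 2 lower, and of 15 demethylases that could be fitted 2 were higher and 6 lower, where 37.7% of all genes in that fit were higher and 40.4% lower. The difference between these classes was not tested.

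On H4K20, Setd8, the cell-cycle-regulated monomethylase, was at 4.06, 3.49 and 4.09 FPKM in WT and 4.83, 5.44 and 4.94 in KO (1.31-fold higher, log2 change 0.32, SE 0.08, limma adjusted p = 0.00815), a direction that turned to -0.068 with rescaled libraries. The enzymes that act after it appear in the table under names the rule does not take. Suv420h2 (Kmt5c), the trimethylase, rose 2.03-fold from 8.33 ± 0.261 to 17.0 ± 1.34 FPKM (limma adjusted p = 8.08e-06, log2 change 0.94, and 0.51 rescaled), and Suv420h1 (Kmt5b), the main dimethylase, was at 0.724 ± 0.0538 and 0.372 ± 0.0315 FPKM, below the minimum.

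Of 5 genes with another or an unsettled substrate, 4 were tested, of which 2 rose and 2 fell, where 38.0% of all tested genes rose and 40.4% fell. Kmt2e, a SET-domain protein that binds H3K4 trimethylation and for which no methyltransferase activity is established, was at 6.86, 6.62 and 6.49 FPKM in WT and 12.7, 12.7 and 12.7 in KO (1.91-fold higher, log2 change 0.84, SE 0.05, limma adjusted p = 2.68e-06). It was also higher rescaled, by 0.42. It lies on chromosome 5, 23434441 to 23504235, plus strand. Setd6, which methylates the NF-kB subunit RELA, was the most abundant SETD gene, at 26.3, 25.5 and 25.5 FPKM in WT and 37.4, 31.4 and 36.4 in KO (1.36-fold higher, limma adjusted p = 0.000626, log2 change 0.43, and -0.027 rescaled).

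Setd4 fell from 1.79, 1.59 and 1.81 FPKM to 0.432, 0.765 and 1.003 (2.36-fold, log2 change -0.67, SE 0.13, limma adjusted p = 0.00237), with a wide spread among the KO libraries. Setd3, the methyltransferase of a histidine in actin, fell 1.38-fold from 3.01 ± 0.137 to 2.18 ± 0.241 FPKM (limma adjusted p = 0.00684). Setd5, whose activity on H3K36 is disputed, was at 1.03 ± 0.0584 and 0.562 ± 0.0660 FPKM, 1.83-fold lower without overlap (read-based log2 change -0.84, SE 0.13, limma-voom adjusted p = 5.77e-05).

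Other genes of histone and arginine methylation changed in both directions. Of 41 such genes listed from general knowledge, 35 were tested, of which 6 rose, 19 fell and 10 were not called, with a median log2 change of -0.29 (-0.66 rescaled). Of all tested genes 38.0% rose and 40.4% fell, with a median of -0.02 (-0.41 rescaled). The largest changes beside Ash2l, Wdr77, Wdr82 and Riok1 were those of Smyd5, a methyltransferase of the SMYD family, which fell 18.1-fold from 13.1 ± 0.479 to 0.722 ± 0.180 FPKM (log2 change -3.03, SE 0.09, limma adjusted p = 9.71e-08), and of Jmjd6, a JmjC lysyl hydroxylase, which fell 3.01-fold from 23.7 ± 0.541 to 7.87 ± 0.290 FPKM (log2 change -1.48, SE 0.05, limma adjusted p = 1.35e-07).

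Of 10 genes of cofactor supply and removal, 9 were tested, of which 4 rose and 5 fell, where 78.4% of all tested genes were called, so the count is no result about these genes. Ahcy, which clears S-adenosylhomocysteine, the inhibitory product of all these methyltransferases, fell 2.71-fold from 17.5 ± 1.598 to 6.47 ± 0.218 FPKM. Mtap, which clears methylthioadenosine, a metabolite that inhibits PRMT5, fell 3.27-fold from 13.1 ± 0.373 to 4.001 ± 0.0438 FPKM. Mat2a, the enzyme that makes S-adenosylmethionine, fell 1.31-fold from 67.6 ± 0.884 to 51.7 ± 1.57 FPKM, while its regulatory subunit Mat2b rose 1.45-fold (log2 change 0.51, and 0.06 rescaled).

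On the side of the demethylases, Idh1, a cytosolic source of 2-oxoglutarate, rose 2.37-fold from 53.3 ± 0.700 to 126 ± 4.197 FPKM. The limma adjusted p of these 5 genes lay between 5.47e-08 and 2.41e-05.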

How the data were processed

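Per the labels' protocols, L-GMP were sorted into Trizol, Smart-seq2 gave the cDNA and Nextera XT the libraries, which were run on a NextSeq platform. Per the submitters' processing notes, CASAVA, bcl2fastq, STAR 2.5.3a, DESeq2 1.18.1 and mm10 were used. For the counter, its annotation and its strand setting, nothing is stated (not given in the sources used here). The authors deposited 1 table of FPKM values. Its library denominators follow the libraries' median-ratio size factors (relative ratios 0.995 to 1.005).

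Genes averaging at least 1 FPKM over the 6 libraries were fitted on log2(FPKM + 1) with limma 3.58.1 (R 4.3.3; genotype, mean-variance trend, two-sided, Benjamini-Hochberg over 9108 genes, threshold 0.05). FPKM times exonic length (GENCODE M21, GRCm38) gave whole reads within 0.001 for 16481 genes, and at a searched length for another 2557. In the read-based fit (limma-voom) these were scaled by trimmed means of M values. For 8 of the genes reported (Prmt2, Setd4, Setd6, Kdm6a, Kdm1b, Kdm3b, Kmt2d and Kdm2a) the length was searched. Below 1 FPKM, lengths were searched only for genes of the rule. The floor of 3 reads for a count of 0 covers counting error only, because amplified reads lack molecular identifiers. Promoter sequences came from RefSeq (GRCm38.p6), and Python 3.11.15, pandas 2.3.3 and matplotlib 3.10.9 were used.

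The genes, lists and tests were chosen with earlier results of these data known. All genes of the rule are named. Values per library are given for tested genes called with at least 1.5-fold change, for sex-linked members and for others where a comparison rests on them, and of the 2 other lists the 6 largest called changes are named, except that some items are not reported here. The test was tried on simulated data.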

Additional observations from a re-analysis of the deposited data

How the results depend on the processing

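With a minimum mean of 5 FPKM, 4455 genes were called (2072 higher, 2383 lower), 3 of the family higher and 4 lower, because fewer genes were tested. With no minimum, 5769 genes were lower, and 10 of the family were higher and 15 lower, because more were tested. With libraries rescaled to equal sums, 2074 genes were higher, 2 of the family were higher, and 0 were higher by at least 1.5-fold, while Kmt2d (-0.27), Setd8 (-0.068) and Setd6 (-0.027) changed sign. Kmt2d, Kdm3b (-0.27) and Prmt10 (-0.53) were then newly called lower. Quantile normalization and limma-voom on recovered reads each gave 6 of the tested family higher and 9 lower, as in the main fit. Leaving out 1 library at a time gave 6812 to 6979 called genes (3305 to 3380 higher, 3507 to 3603 lower), 6 higher and 8 to 9 lower in the family, and 2 to 3 higher and 5 to 6 lower by at least 1.5-fold. On recovered reads it gave 4 higher and 6 to 7 lower among genes below 1 FPKM. Plain library totals in the read-based fit added calls for Kdm1b (-0.72) and Kdm5a (-0.39), both lower. With 1 FPKM added to each gene, the log2 differences of the ratios were smaller: 0.91 in place of 2.36 for Kmt2c over Kmt2b, 0.68 in place of 1.17 for Setd2 over Kdm2a and 2.02 in place of 2.33 for Prmt2 over Prmt1. The replicate numbers pair no libraries: deviations of same-numbered WT and KO libraries correlated at 0.01, -0.01 and -0.02, and with the replicate block 7040 genes were called (3420 higher, 3620 lower), with 6 of the family higher and 9 lower. Depth limits the genes with few reads, such as Kdm6b with 8 in KO and Kdm7a with 44 in WT.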

Other observations

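Polycomb genes, which write the H3K27 mark that Kdm6a and Kdm6b erase, were described by values only and were picked for this after their values were seen. Ezh1 rose 2.17-fold from 1.13 ± 0.111 to 2.45 ± 0.214 FPKM (limma adjusted p = 0.000186). Ezh2, its more abundant relative, was at 6.08 ± 0.206 FPKM in WT and 6.46 ± 0.206 in KO and was not called (limma adjusted p = 0.266), and neither were Eed (11.3 and 11.5 FPKM) and Suz12 (3.01 and 3.49 FPKM). With libraries rescaled to equal sums, Ezh1 was still higher (0.40), while Ezh2 (-0.33, limma adjusted p = 0.00126) and Eed (-0.41, limma adjusted p = 0.00264) were called lower and Suz12 (-0.19) was not called.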
